A study of Rattus norvegicus with 6 samples.

Results

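Cat, Gclm, Slc7a11 and Txnrd1 encode proteins that keep hydrogen peroxide and other oxidants in check, and their transcripts were followed across 6 libraries of rat astrocytes. Of 7 names considered, these 4 are paired with an Ensembl identifier in the part of the study's table of differential expression that was read, which holds the 1517 genes with the smallest p-values for tissue-engineered against planar astrocytes. The 4 genes were therefore chosen by their p-value in that comparison, and were known from it to be higher in the tissue-engineered form. The names Gclc, Srxn1 and Prdx1 are not paired there and were not analysed here. The 4 genes are 4 of the 23940 in the deposited count table, and all 4 were among the 16331 that were tested, which needed 10 or more counts over all libraries.

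Astrocytes from the cortex of postnatal Sprague-Dawley rat pups, at passage 4, were grown either in collagen-coated agarose microchannels, where they bundled into a tissue-engineered rostral migratory stream (TE-RMS), or as flat cultures on collagen (planar astrocytes). RNA came from 3 runs, each with 1 TE-RMS and 1 planar library taken at 4 days in vitro, and each run used other animals. The runs are named July, September and October after their labels. Both conditions shared a medium without serum, and no drug or genetic change was applied to either. A TE-RMS library pooled selected, well-bundled constructs from 3 fabrication days, with 1 flask for each day, kept in a preservative and frozen. A planar library came from fresh wells plated on the last of those days. Culture format, selection, preservation, flask and day of plating therefore cannot be told apart. The July, September and October libraries totalled 70682593, 70478784 and 56483332 counts for planar cells. Those of the TE-RMS totalled 54601354, 77277336 and 64537115 counts. Both September libraries stood apart from the others of their condition in Cd68 and Snap25, markers of phagocytes and neurons, but not in Tmem119 and Map2, the other microglial and neuronal markers measured, and fold changes are also given without that run.

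Hydrogen peroxide is split to water and oxygen by catalase, or reduced by peroxidases that draw on glutathione or on thioredoxin. Glutathione is built from cysteine, which cells import as cystine through the xCT antiporter, and thioredoxin is kept reduced by thioredoxin reductase. Both routes spend NADPH. In the brain, astrocytes are known as the main holders of glutathione and supply its precursors to neurons. The transcription factor NRF2 drives many of these genes through antioxidant response elements in their promoters.

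The promoter windows of the 4 genes are shown because the levels of the genes were higher together and NRF2 elements are a known feature of this pathway. All 4 symbols matched the RefSeq promoter table of GRCr8, which gives 250 bases before to 50 bases after a start site, and Txnrd1 has 2 such windows. Sequences run 5' to 3' on the strand of the gene. Capitals mark a match to the core TGACNNNGC of the antioxidant response element on either strand.
Cat, chr3:110329477-110329776, minus strand: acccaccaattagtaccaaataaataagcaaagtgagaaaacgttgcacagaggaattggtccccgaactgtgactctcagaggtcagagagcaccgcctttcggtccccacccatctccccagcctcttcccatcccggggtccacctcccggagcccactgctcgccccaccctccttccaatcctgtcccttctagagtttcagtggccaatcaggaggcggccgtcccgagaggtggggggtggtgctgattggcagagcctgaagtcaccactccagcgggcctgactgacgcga
Gclm, chr2:213031885-213032184, plus strand: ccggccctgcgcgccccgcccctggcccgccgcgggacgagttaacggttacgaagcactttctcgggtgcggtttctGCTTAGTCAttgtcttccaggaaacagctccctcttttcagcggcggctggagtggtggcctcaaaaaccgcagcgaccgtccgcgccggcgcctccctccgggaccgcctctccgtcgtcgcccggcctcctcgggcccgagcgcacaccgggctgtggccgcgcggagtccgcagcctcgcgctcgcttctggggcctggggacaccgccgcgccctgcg
Slc7a11, chr2:136668215-136668514, minus strand: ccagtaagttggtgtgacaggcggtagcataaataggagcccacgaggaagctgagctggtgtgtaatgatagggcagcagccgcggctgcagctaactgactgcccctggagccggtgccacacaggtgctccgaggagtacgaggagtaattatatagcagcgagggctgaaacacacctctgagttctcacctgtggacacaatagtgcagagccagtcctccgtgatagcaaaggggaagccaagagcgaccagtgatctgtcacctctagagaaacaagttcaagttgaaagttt
Txnrd1, first window, chr7:22764802-22765101, minus strand: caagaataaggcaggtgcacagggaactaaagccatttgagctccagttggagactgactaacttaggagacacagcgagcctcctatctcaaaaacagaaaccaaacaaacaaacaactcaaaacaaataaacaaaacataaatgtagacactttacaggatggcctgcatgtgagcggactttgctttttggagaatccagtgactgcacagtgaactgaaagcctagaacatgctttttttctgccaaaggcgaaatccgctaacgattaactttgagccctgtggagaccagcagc
Txnrd1, second window, chr7:22755855-22756154, minus strand: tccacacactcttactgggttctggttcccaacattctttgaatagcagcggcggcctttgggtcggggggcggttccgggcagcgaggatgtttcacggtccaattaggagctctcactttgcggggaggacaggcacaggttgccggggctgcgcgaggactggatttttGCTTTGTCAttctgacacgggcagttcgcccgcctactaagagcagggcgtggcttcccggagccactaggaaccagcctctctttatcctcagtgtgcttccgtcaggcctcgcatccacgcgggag

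The core occurred once in the Gclm window, from -172 to -164 relative to the start site, and once in the second Txnrd1 window, from -78 to -70. Both matches lay on the strand opposite to the gene. The Cat and Slc7a11 windows and the first Txnrd1 window did not hold these letters. Of all 33469 windows of that length, 12.1% held the core on either strand. Counted by gene, 13.1% of 27457 genes with a window held it in at least 1 window, and 2 of the 4 genes did. With the looser core TGANNNNGC, which includes every match of the stricter one, the share of windows was 40.5%, and Slc7a11 also held a match, from -183 to -175. A match of letters describes the window and is not a measured binding site.

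**Figure D1:**
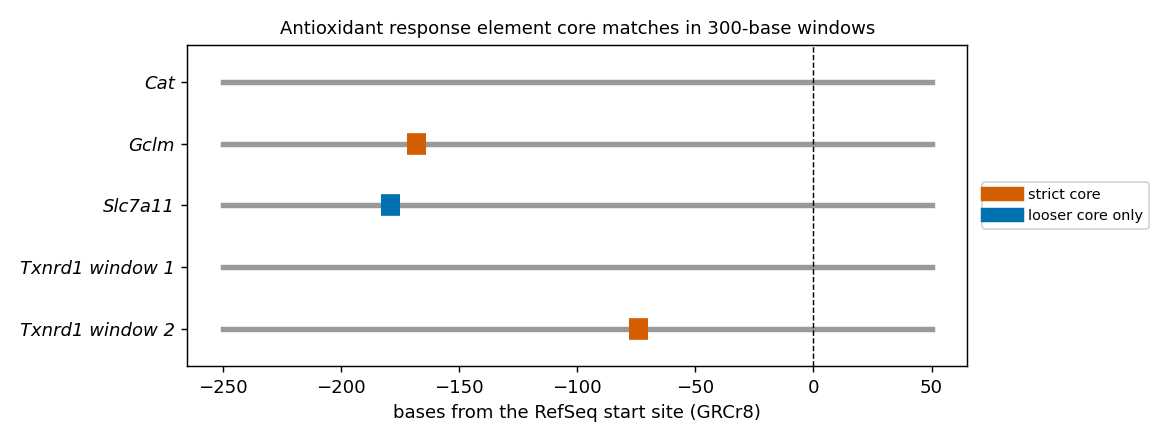
Position of antioxidant response element core matches in the RefSeq windows of the 4 genes. The horizontal axis is the distance in bases from the start site on GRCr8, each grey line is 1 window of 300 bases, orange blocks mark the strict core and the blue block marks a match to the looser core only. Gclm and the second Txnrd1 window each held 1 strict match, and Cat held neither.

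In every run all 4 genes had more transcript in the TE-RMS than in the planar library, which held for 22.5% of all tested genes. For each of them, moreover, every TE-RMS library lay above every planar library. The log2 fold changes were 5.59 for Slc7a11, 2.99 for Cat, 1.60 for Gclm and 1.04 for Txnrd1. Because the genes were named from a table ordered by this very comparison, these values describe them, and no test is given. The threshold of edgeR's quasi-likelihood test was passed in the upward direction by 9.36% of all tested genes and by all 4 of these, a count that the choice fixes. Likewise 13.2% of all tested genes had TE-RMS libraries wholly above the planar ones. Within a DESeq2 fit of the same comparison, whose small p-values the choice of names also fixes, Cat ranked 10, Gclm 271, Txnrd1 511 and Slc7a11 735 by p-value. Names beyond the 1517 genes were not read. Values per library are CPM, which are counts scaled to a common library size, with TMM normalization. Since CPM is not scaled by transcript length, a gene, or a sum over a list of markers, is compared only with itself between libraries. The RNA is from bulk cultures, so a change in the share of cells that express a gene and a change of RNA per cell cannot be told apart.

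**Figure D2:**
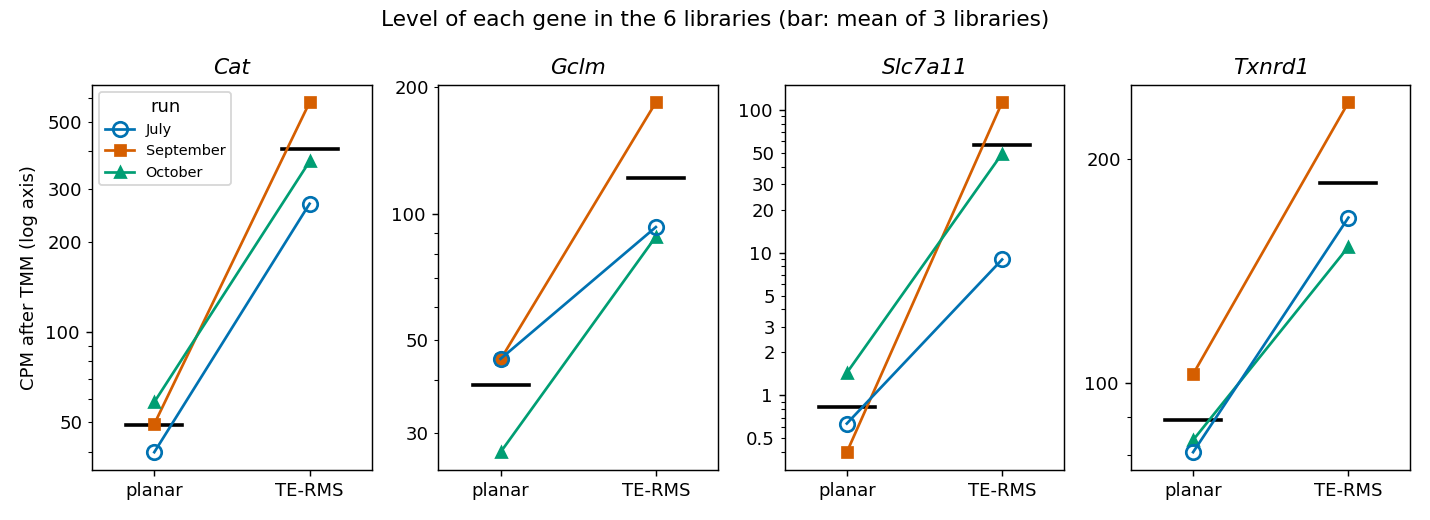
Level of Cat, Gclm, Slc7a11 and Txnrd1 in each library, in CPM after TMM normalization on a log axis that differs between panels. Each line joins the planar and TE-RMS library of 1 run and black bars are the means of 3 libraries. Every line rises, and the September TE-RMS library is the highest in each panel.

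Cat (ENSRNOG00000008364, chromosome 3 of mRatBN7.2 from 89842399 to 89874478, minus strand) encodes catalase, the peroxisomal enzyme that breaks down hydrogen peroxide without a reducing partner. Planar astrocytes held 39.8 CPM in July, 49.4 in September and 58.4 in October. TE-RMS astrocytes held 267 CPM in July, 582 in September and 369.9 in October. The lowest TE-RMS library was thus far above the highest planar one. The planar mean was 49.2 ± 9.32 CPM (SD, n = 3), the TE-RMS mean was 406 ± 160.2 CPM (SD, n = 3), and the log2 fold change was 2.99 (standard error 0.21). Within runs the ratio of CPM was 6.72 in July, 11.8 in September and 6.33 in October. The 95% counting intervals, from an exact Clopper-Pearson interval on both counts, were 6.45 to 7.0, 11.4 to 12.2 and 6.11 to 6.56. The July and October intervals overlapped and the September ratio stood above both. These intervals cover counting error only, and reads without molecular identifiers are not independent molecules.

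Slc7a11 (ENSRNOG00000010210, chromosome 2 from 133963107 to 134517536, minus strand) encodes the light chain of the xCT antiporter, which takes up cystine in exchange for glutamate. It was low in planar astrocytes, with 43, 29 and 87 counts in July, September and October, or 0.636, 0.401 and 1.44 CPM. TE-RMS astrocytes had 507, 8083 and 3124 counts in the same order, or 8.94, 112 and 49.2 CPM. The July TE-RMS library was the lowest of its condition and still above every planar library. The planar mean was 0.825 ± 0.545 CPM (SD, n = 3) and the TE-RMS mean 56.8 ± 52.1 CPM (SD, n = 3). The log2 fold change was 5.59 (standard error 0.64). The ratio within a run was 14.1 in July (counting interval 10.3 to 19.7), 280.4 in September (195.1 to 419) and 34.2 in October (27.6 to 42.8). These intervals did not overlap. The September ratio combines the highest TE-RMS library, at 112 CPM, with the lowest planar library, which had only 29 counts. Without September the log2 fold change was 4.48, and without July it was 6.48.

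Gclm (ENSRNOG00000013409, chromosome 2 from 210347482 to 210367535, plus strand) encodes the modifier subunit of glutamate-cysteine ligase, which joins glutamate to cysteine in the first and rate-limiting step of glutathione synthesis. The catalytic subunit is encoded by Gclc, one of the unpaired names. Gclm had 45.0 CPM in July, 44.9 in September and 27.0 in October in planar astrocytes, and 92.8, 184.1 and 88.1 CPM in TE-RMS astrocytes. The July and September planar libraries were nearly equal, while the September TE-RMS library stood well above the other two of its condition. The planar mean of Gclm was 39.0 ± 10.4 CPM (SD, n = 3), its TE-RMS mean 122 ± 54.1 CPM (SD, n = 3) and the log2 fold change 1.60 (standard error 0.20). The ratio was 2.06 in July (counting interval 1.97 to 2.16), 4.10 in September (3.95 to 4.26) and 3.27 in October (3.09 to 3.45).

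Txnrd1 (ENSRNOG00000009088, chromosome 7 from 20830045 to 20907863, minus strand) encodes the cytosolic thioredoxin reductase, a selenoprotein that uses NADPH to reduce thioredoxin. Its planar level was 80.6 CPM in July, 102.7 in September and 83.7 in October, and its TE-RMS level was 167, 239 and 152 CPM in that order. September was the highest library of both conditions, and the conditions did not overlap. The planar mean was 89.0 ± 12 CPM (SD, n = 3), the TE-RMS mean was 186 ± 46.1 CPM (SD, n = 3), and the log2 fold change was 1.04 (standard error 0.16). Of the 4 genes it had the smallest change and the least variable one. The ratio was 2.07 in July (counting interval 2.00 to 2.14), 2.32 in September (2.26 to 2.39) and 1.82 in October (1.76 to 1.88). In July the ratios of Gclm and Txnrd1 could not be told apart by counting error, whereas in September and October the ratio of Gclm was the higher.

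The ratio was highest in September for all 4 genes, and it was lowest in July for Slc7a11 and Gclm and in October for Cat and Txnrd1. On the log2 scale with a prior count of 2, the SD of the 3 ratios was 2.19 for Slc7a11, 0.51 for Gclm, 0.49 for Cat and 0.18 for Txnrd1, against a median of 0.53 over all tested genes. With 1 library of each condition in a run, a difference in the ratio between runs cannot be tested. The order Slc7a11, Cat, Gclm, Txnrd1 held in September and October. In July Gclm and Txnrd1 had log2 ratios of 1.04 and 1.05.

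Differences between runs are the measure that the choice of genes did not use directly, although they are judged against the same residual spread. Both run terms were tested at once, given the condition, by edgeR's quasi-likelihood test and Benjamini-Hochberg adjustment over all tested genes, and 3.21% of these genes passed. None of the 4 genes passed. The adjusted p was 0.133 for Gclm, 0.241 for Cat, 0.275 for Slc7a11 and 0.342 for Txnrd1, with unadjusted p-values of 0.00861, 0.0278, 0.0361 and 0.0576. An unadjusted p under 0.05 was reached by 3 of the 4 and by 15.6% of all tested genes. The outcome for Gclm and Slc7a11 depended on the tool. DESeq2's likelihood ratio test gave Gclm an adjusted p of 0.0428, and limma-voom gave Slc7a11 an adjusted p of 0.00288.

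The levels by run were as follows. As the mean of both libraries of a run against the mean of all 6, on log2 CPM, Gclm was at -0.03 in July, 0.46 in September and -0.44 in October. Cat was at -0.41, 0.31 and 0.10 in the same order. Slc7a11 was at -1.10, 0.41 and 0.70, and Txnrd1 at -0.13, 0.30 and -0.17. The runs span 0.47 for Txnrd1, 0.72 for Cat, 0.90 for Gclm and 1.80 for Slc7a11, against a median span of 0.74 over all tested genes. September was the highest run for Cat, Gclm and Txnrd1, and October for Slc7a11. Measured from the mean of its own condition, the planar and the TE-RMS library of a run deviated to the same side in all 3 runs for Txnrd1. They did so in July and September for Cat, in September and October for Gclm, and in July and October for Slc7a11. For Slc7a11 the September libraries went opposite ways, at -0.80 in planar and 1.61 in TE-RMS.

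**Figure D3:**
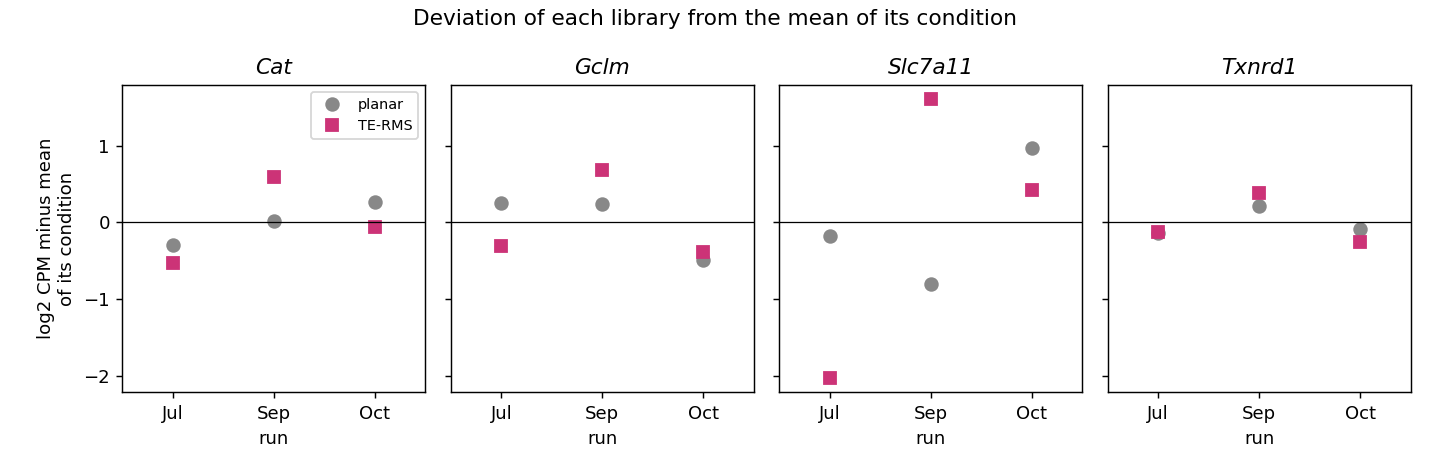
Deviation of each library from the mean of its condition, in log2 CPM, for the 4 genes by run. Grey circles are planar and magenta squares TE-RMS libraries, and the line at 0 is the mean of the 3 libraries of a condition. For Slc7a11 the TE-RMS libraries range from -2.03 in July to 1.61 in September, and for Txnrd1 all deviations lie between -0.26 and 0.39.

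Markers of other cell types were read beside these results. The libraries are labelled as astrocytes, and 5 of 11 astrocyte markers are paired with an identifier. Over the 6 libraries Slc1a3, a glutamate transporter, had 241 to 882 CPM, and Gja1, which encodes a connexin, had 222 to 862 CPM. Slc1a2, the other main glutamate transporter, had 0.414 to 1.33 CPM in planar and 7.44 to 20.8 CPM in TE-RMS libraries. Fgfr3, a growth factor receptor, was the only one of the 5 that was lower in TE-RMS astrocytes (log2 fold change -2.57). With Apoe, a lipid carrier and the one with the most counts, the 5 markers summed to 2399 CPM in July, 1738 in September and 2957 in October for planar astrocytes. For TE-RMS astrocytes they summed to 8055, 5106 and 9447 CPM. Apoe made up most of that, with 6761 CPM in July, 3593 in September and 7646 in October, whereas Gja1 and Slc1a2 were higher in September than in July. Gfap, Aqp4, Aldh1l1, S100b, Sox9 and Glul are not paired and were not analysed here.

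Of 8 fibroblast and mural cell markers, 4 are paired (Col1a1, Col1a2, Col3a1 and Acta2, with Col1a2 having the most counts). Their sum was 849.8, 439 and 701 CPM for planar cells and 181, 146 and 229 CPM for the TE-RMS, so they were lower in TE-RMS astrocytes, where the 4 genes were higher. Of 10 microglial markers, 2 are paired. They summed to 25.9, 38.8 and 27.2 CPM in planar and 14.0, 91.0 and 12.9 CPM in TE-RMS libraries. The 2 went opposite ways with the condition and differed in pattern between runs. Cd68, a lysosomal protein of phagocytes, had 1.30, 15.6 and 0.778 CPM in planar and 8.69, 85.4 and 3.75 CPM in TE-RMS libraries (log2 fold change 2.49), and was highest in September in both conditions. Tmem119, a surface protein of microglia, had 24.6, 23.2 and 26.5 CPM in planar and 5.26, 5.60 and 9.14 CPM in TE-RMS libraries (log2 fold change -1.94). It was highest in October in both conditions.

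Of 7 neuronal markers 2 are paired, and both were higher in TE-RMS astrocytes in every run, as the 4 genes were. They summed to 12.7, 7.63 and 5.94 CPM in planar and 34.9, 91.3 and 18.1 CPM in TE-RMS libraries. Snap25, a synaptic vesicle fusion protein, had 0.0148, 3.92 and 0.0496 CPM in planar and 0.459, 60.8 and 3.50 CPM in TE-RMS libraries (log2 fold change 4.61), so September was highest in both conditions. Map2, a microtubule protein of dendrites, had 12.7, 3.70 and 5.89 CPM in planar and 34.5, 30.5 and 14.6 CPM in TE-RMS libraries (log2 fold change 1.91). September was the lowest planar library in Map2 and was below July among the TE-RMS libraries, but the ratio within a run was highest in September, at 8.18, against 2.70 in July and 2.46 in October.

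The September TE-RMS library, the highest in all 4 genes, was thus also the highest in Cd68 and Snap25 but not in Tmem119 or Map2. The September run had the highest ratio in all 4 genes and also in Map2, but not in Cd68 or Tmem119. For Snap25 the order of the ratios between runs is uncertain. Its planar libraries had only 1 count in July and 3 in October, against 284 in September. Of 8 oligodendrocyte lineage markers, only Cspg4, a proteoglycan of precursor cells, is paired, and it had 4.02, 4.91 and 5.10 CPM in planar and 0.705, 0.862 and 0.0945 CPM in TE-RMS libraries. None of 5 endothelial markers is paired. No paired marker was at 0 counts in any library. The part of these cell types in the levels of the 4 genes was not tested. With the September run left out, the log2 fold changes were 2.71 for Cat, 1.38 for Gclm, 4.48 for Slc7a11 and 0.96 for Txnrd1.

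Beyond the 4 genes, 6 lists of the same pathway hold 74 names, of which 19 are paired with an identifier, the 4 included. As these 19 were also named from the genes with the smallest p-values, all 19 passed the test, which says nothing about the lists. The lists were drawn up with earlier results known, so the directions below are a description too. In TE-RMS astrocytes 14 of the 19 were higher and 5 lower, against 9.36% higher and 9.28% lower among all tested genes. The share of higher genes was 73.7%, against 49.7% of all 1503 genes with a paired name. The median log2 fold change of the 19 was 0.96, against -0.12 over all tested genes. Without the 4 genes, 10 of 15 were higher, or 66.7%, and the median was 0.87.

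In the list of glutathione supply and use, 3 of 19 names are paired, and beside Slc7a11 and Gclm the remaining one is Ggt7, of the gamma-glutamyltransferase family. Ggt7 was lower, with 396, 384 and 386 counts in planar and 55, 37 and 0 counts in TE-RMS libraries, and edgeR estimated a log2 fold change of -4.21 (standard error 1.08). The 0 of October allows a level of up to 0.0473 CPM, taken as 3 counts. Its direction was opposite to that of the other two.

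In the list of thioredoxins, peroxiredoxins and glutaredoxins, 3 of 21 names are paired. Prdx3, the mitochondrial peroxiredoxin that removes hydrogen peroxide with thioredoxin, went from a planar mean of 99.1 ± 15.9 CPM (SD, n = 3) to a TE-RMS mean of 181 ± 26.0 CPM (SD, n = 3), a log2 fold change of 0.87. Its 3 log2 ratios were close to each other, from 0.78 to 0.93. Txnip, which binds and inhibits thioredoxin, was lower, with a log2 fold change of -1.08 and log2 ratios of -0.67, -1.70 and -0.86 in July, September and October. Its libraries overlapped between conditions. Its planar level was 47.7 CPM in July, 227 in September and 100.3 in October, and its difference between runs passed the joint test (edgeR, adjusted p = 0.0066).

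For superoxide and peroxide removal, 5 of 6 names are paired. Beside Cat, Sod2, the mitochondrial superoxide dismutase, had a log2 fold change of 1.00, Sod3, the secreted one, of 0.96, and Oxr1, a mitochondrial and nuclear oxidation resistance protein, of 0.90. Each of these was higher in every TE-RMS library than in any planar one. Ccs, the copper chaperone that loads Sod1, was lower, with 47.2, 47.3 and 57.6 CPM in planar and 25.0, 25.2 and 30.5 CPM in TE-RMS libraries. Its log2 ratio was -0.92, -0.91 and -0.91, the same in each run to within 0.01. Sod3 differed between runs (edgeR, adjusted p = 0.0450).

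For NADPH supply, 2 of 8 names are paired and both were higher. Taldo1, transaldolase of the pentose phosphate pathway, had 377, 412 and 285 CPM in planar and 608, 2376 and 1367 CPM in TE-RMS libraries (log2 fold change 1.84). Like Slc7a11 and Gclm, Taldo1 had its smallest ratio in July, 0.69 on the log2 scale, and its largest in September, 2.53. Me1, the cytosolic malic enzyme, had a log2 fold change of 1.37. Its log2 ratio was also smallest in July, at 1.09, and largest in September, at 1.56, with 1.48 in October.

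Among the regulators of the NRF2 pathway, 3 of 9 names are paired. Nfe2l2, which encodes NRF2 itself, had 595, 1027 and 520.3 CPM in planar and 1000.2, 1535 and 972 CPM in TE-RMS libraries. The September planar library exceeded the TE-RMS libraries of July and October, so the conditions overlapped, but within each run TE-RMS was higher, by log2 ratios of 0.75, 0.58 and 0.90. Sqstm1, the autophagy receptor p62 that binds the NRF2 inhibitor KEAP1, rose by a log2 fold change of 0.82. Nfe2l1, a related transcription factor of the same family, was lower in every run, with a log2 fold change of -1.24.

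Txnrd1 carries selenocysteine, and of 11 further selenoprotein genes 3 are paired. Selenot, of the endoplasmic reticulum, had a log2 fold change of 1.13, from a planar mean of 387 ± 29.4 CPM (SD, n = 3) to a TE-RMS mean of 847 ± 76.5 CPM (SD, n = 3). Selenop, the secreted selenium carrier, rose by 1.09, and Selenon, another protein of the endoplasmic reticulum, fell by 1.10 on the log2 scale. Both Selenop and Selenon overlapped between conditions and differed between runs (edgeR, adjusted p = 0.0204 and 0.0478). Among the 16 of the 19 paired genes with a RefSeq promoter window, 5 held the strict core of the antioxidant response element, namely Gclm, Me1, Nfe2l2, Sod2 and Txnrd1, or 31.2% against 13.1% of all genes with a window. The looser core was held by 9 of the 16, or 56.2% against 42.5% of all genes.

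**Figure D4:**
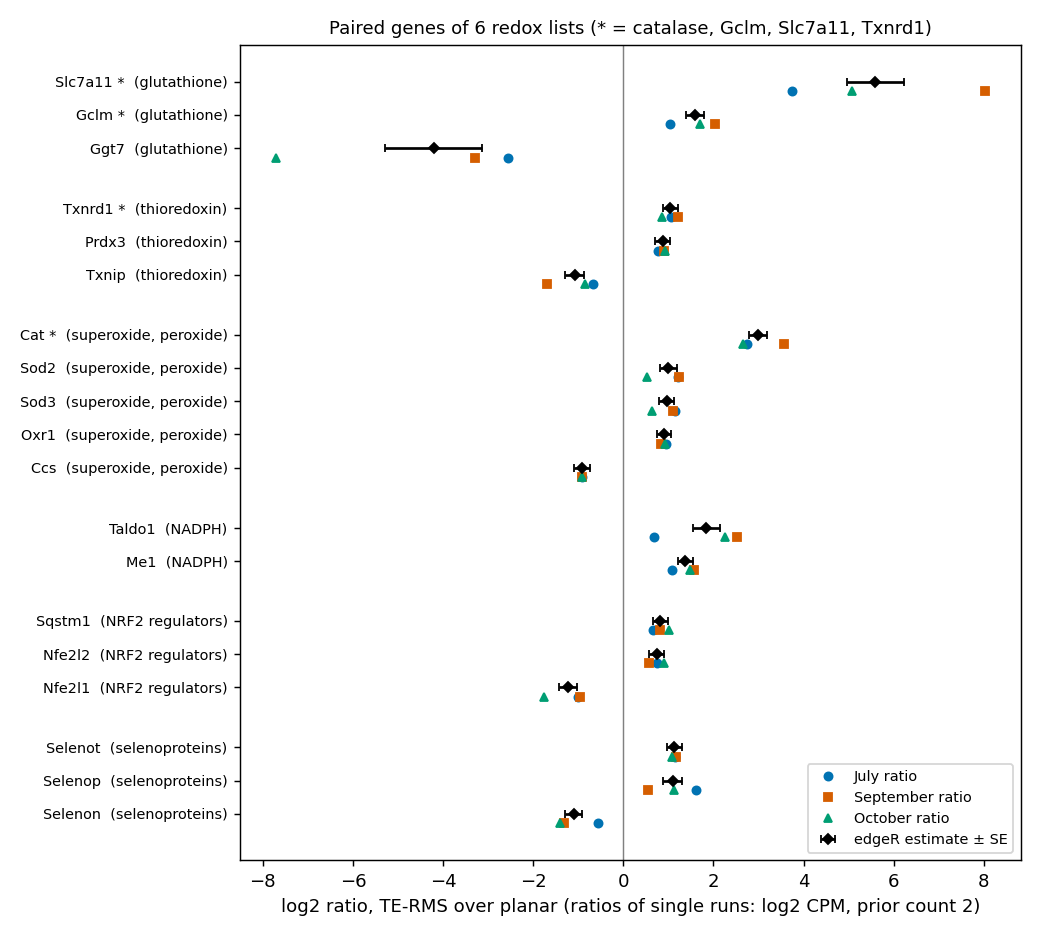
Log2 ratio of TE-RMS over planar for the 19 paired genes of the 6 lists. Black diamonds with bars are edgeR's estimates with their standard errors, and coloured symbols are the ratios of the 3 runs on log2 CPM with a prior count of 2. Slc7a11 has the highest estimate at 5.59, Ggt7 the lowest at -4.21, and most of the remaining estimates lie near 1 or -1.

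The genes whose profile over the 6 libraries was most like that of each of the 4 were sought among the 1503 tested genes with a paired name, by the root mean square difference of log2 CPM after each gene was centred on its own mean. For Cat they were Slc40a1 (0.22), which encodes the iron exporter ferroportin, Mospd2 (0.34) and Ugt1a8 (0.35), a glucuronosyltransferase. For Gclm they were Dlg3 (0.15), Ccl7 (0.16), a chemokine, and Srp54a (0.18). For Slc7a11 they were Pcp4 (0.43), Akr1c15 (0.79), an aldo-keto reductase, and Lrrc25 (1.26). For Txnrd1 they were Entpd4 (0.063), Csnk1g3 (0.078), a casein kinase, and Nipa2 (0.081). The distances were largest for Slc7a11, which also had the largest fold change of the 4. None of the 4 was among the nearest 3 of another. Among themselves Gclm and Txnrd1 were the closest by this measure, at 0.39, and Slc7a11 and Txnrd1 the farthest, at 2.55. By Pearson correlation, Cat and Slc7a11 were instead the most alike (0.976) and Gclm and Slc7a11 the least (0.865). The named genes compared here were all selected for a difference between the conditions, which their profiles therefore share.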

How the data were processed

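RNA-seq of 6 libraries was analysed. Per the labels and the methods, reads were trimmed by fastp and quantified by Salmon on mRatBN7.2 transcripts, and the authors deposited them by gene. The deposited estimated counts are whole numbers and not normalized, and the library kit does not keep strand. Salmon shares reads between similar transcripts, so counts of paralogs depend on that division. Names and positions came only from the study's table of differential expression, whose p-values set which names were read. None of its values is reported, and the ranks given are from the DESeq2 fit made here.

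A gene needed at least 10 counts over all libraries. TMM normalization was used, with fits by edgeR 4.0.16 (R 4.3.3) by the quasi-likelihood method, with run and condition as terms and Benjamini-Hochberg adjustment at 0.05. Standard errors are the log2 fold change over the square root of F. The run is a block because both its libraries came from the same harvest of cells, and other runs from other animals. Deviations from the condition mean correlated at 0.18 to 0.27 within a run and -0.16 to -0.07 between runs. DESeq2 1.42.0, limma 3.58.1 (voom), other scalings and filters, thinned counts, no block and each run left out were alternatives. Only the edgeR fit was tested on simulated data.

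The genes, the pathway and marker lists and the alternatives were chosen with earlier results of these data known. Genes named are the 4, the paired list members and the 3 genes nearest to each of the 4. Some list members are not reported here and were left out of the lists' counts. Replicates are separate preparations.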

Additional observations from a re-analysis of the deposited data

How the results depend on the processing

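All alternatives kept the direction of the 4 genes, which was to be foreseen, as they were chosen on it and had it in every run. Their log2 fold changes moved by less than the SD of the 3 ratios, a bound that leaving out 1 run can hardly exceed. They ran from 2.71 to 3.19 for Cat, 1.38 to 1.87 for Gclm, 4.48 to 6.48 for Slc7a11 and 0.96 to 1.17 for Txnrd1, both ends coming from fits without 1 run. Over all genes, 3044 were called between conditions with the run as a replicate block and 1441 without it, and 525 were called between runs, against 1257 with DESeq2 and 224 with at least 10 counts in 3 libraries. The adjusted p for the difference between runs stayed over 0.05 under all 11 alternatives for Cat (0.0964 to 0.705) and Txnrd1 (0.155 to 0.991). For Gclm it ran from 0.00357 without July to 0.678 without September, and passed also with DESeq2. For Slc7a11 it ran from 0.00065 without September to 0.997 without July, and passed also with limma-voom. With 2 runs left, that test compares 4 libraries. The causes were not tested. With Pearson correlation in place of the root mean square difference, 4 of the 12 nearest genes were the same. No scaling moved the median log2 fold change of all genes by over 0.1. Slc7a11 had 29 to 87 counts in planar libraries, so counting error widens its ratios. Its planar libraries also differed from each other, with deviations from their mean of -0.80 in September to 0.97 in October on log2 CPM.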
